A study of Arabidopsis thaliana with 18 samples.

Results

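The combined effect of mutations in both AtChz1 genes and in ARP6 was read from a design with 4 genotypes of Arabidopsis thaliana, in 12 of the 18 libraries sequenced. Genes were chosen where the level in the combined line departed from what the separate changes give when they add on the log scale, which held for 2597 of 18906 genes tested. The genotypes were the wild type Col-0, the line atchz1ab, the line arp6 with the allele arp6-1, and the combined line atchz1ab arp6, each with 3 libraries of polyadenylated RNA from whole seedlings of the ecotype Col-0. All seedlings were 14 days old and had grown on MS medium at 22 °C under long days (16 h light, 8 h dark). The other 6 libraries, from hta9hta11 (alleles hta9-1 and hta11-2) and atchz1ab hta9hta11, entered the fit that estimates the spread and 1 comparison of backgrounds. The labels name 1 line per genotype and give neither the alleles of atchz1ab nor the crosses behind the combined line.

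H2A.Z is a variant of histone H2A that sits mainly in nucleosomes near gene starts and in the bodies of genes that respond to stress or environment. The SWR1 complex exchanges H2A for H2A.Z, and ARP6 is a subunit that it needs for this exchange in plants. Chz1 was described in yeast as a chaperone that carries H2A.Z with H2B to SWR1, and the AtChz1 proteins are named after it. Loss of ARP6 is known to bring early flowering and altered responses to temperature and pathogens.

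The interaction was measured for each gene as the log2 change with the atchz1ab mutations in the arp6 background minus the log2 change with them in the Col-0 background. A value of 0 means that the 2 changes multiply, so that the level in atchz1ab arp6 equals the level in atchz1ab times that in arp6, divided by that in Col-0. That product is called the expected level here, and higher or lower refers to it. Levels are CPM, counts scaled to a common library size with TMM factors, and depth ran from 7163359 to 10088647 counts per library. Adjusted p-values come from edgeR's quasi-likelihood test with Benjamini-Hochberg adjustment over the 18906 genes tested, and a gene is called when its value is under 0.05. ARP6 (AT3G33520) had 0 counts in the arp6 libraries and 1 count in atchz1ab arp6, against 27.8 ± 2.27 CPM (SD, n = 3) in Col-0 and 25.9 ± 1.13 in atchz1ab. AtChz1 transcripts are not analysed here. Leaf genes were at high levels in all 4 genotypes, with 39 photosynthesis genes summing to between 97595 and 135605 CPM per library. Reads of organelle genes made up 2.13% of counts in Col-0 and 2.17% in arp6, against 1.6% in atchz1ab and 1.75% in atchz1ab arp6.

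The level in atchz1ab arp6 departed from the expected level for 2597 genes (13.7% of those tested). Of these, 1207 were higher than expected (6.38%) and 1390 were lower (7.35%), with a median log2 interaction of 0.55 among the higher and -0.34 among the lower ones. The departure was at least 2-fold for 484 genes (2.56%), of which 355 were higher and 129 were lower, and at least 4-fold for 206 genes (1.09%). Replicates differed little, with a common coefficient of variation of 3.08%, and nothing in the labels says that they were grown or extracted separately. The p-values therefore cover the spread among these libraries alone, and that spread may be technical. With the coefficient set to 0.1 for every gene, 693 genes were called, 478 higher and 215 lower. With library totals in place of TMM scaling, which shifted the median gene by 0.05 on the log2 scale, the split became 1624 higher and 956 lower, so that 62.9% of calls were higher in place of 46.5%.

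For 2393 of the 2597 called genes (92.1%) the interaction had the opposite sign to the sum of the 2 separate log2 changes, with 1115 of them higher and 1278 lower than expected. The same held for 72.5% of all genes tested, since the sum and the interaction use the same Col-0, atchz1ab and arp6 libraries and chance deviations in those libraries raise this share. In 656 of the 2393 genes the combined change against Col-0 itself had the opposite sign to the sum, and in 208 it was larger in size than the sum. The combined change was smaller in size than the sum for 2185 called genes (84.1%), against 64.8% of all genes tested. For the other 204 called genes the interaction had the sign of the sum, 92 of them higher and 112 lower. On the CPM scale, where changes add rather than multiply, the departure had the opposite sign in 10 of the called genes (0.385%).

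The loss of ARP6 itself changed a large share of genes. In arp6 against Col-0 9402 genes were called (49.7%), 24.2% of those tested higher and 25.5% lower. In atchz1ab arp6 against atchz1ab 8472 were called (44.8%), 22.2% higher and 22.6% lower, and in atchz1ab arp6 against Col-0 8675 were called (45.9%), 22.7% higher and 23.2% lower. The change with the atchz1ab mutations was then read in each background, which use separate libraries. In Col-0, 2211 genes were called (11.7%), 1162 higher (6.15%) and 1049 lower (5.55%) in atchz1ab. In the arp6 background 2768 were called (14.6%), 1254 higher (6.63%) and 1514 lower (8.01%) in atchz1ab arp6. The same direction was called in both for 398 genes, and 107 of those still differed in size by the interaction test. Opposite directions were called for 442 of the 18906 genes tested. All of them were called in the interaction, which largely follows from its definition, since opposite changes add up in the difference. The change was at least 2-fold for 283 called genes in Col-0 (1.5%) and for 368 in the arp6 background (1.95%). A further 1371 genes were called in the Col-0 background alone and 1928 in the arp6 background alone. The interaction test called 690 of the former and 1015 of the latter, so that for the remaining genes a difference between backgrounds was not shown. The interaction also called 343 genes that were called in neither background.

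**Figure D1:**
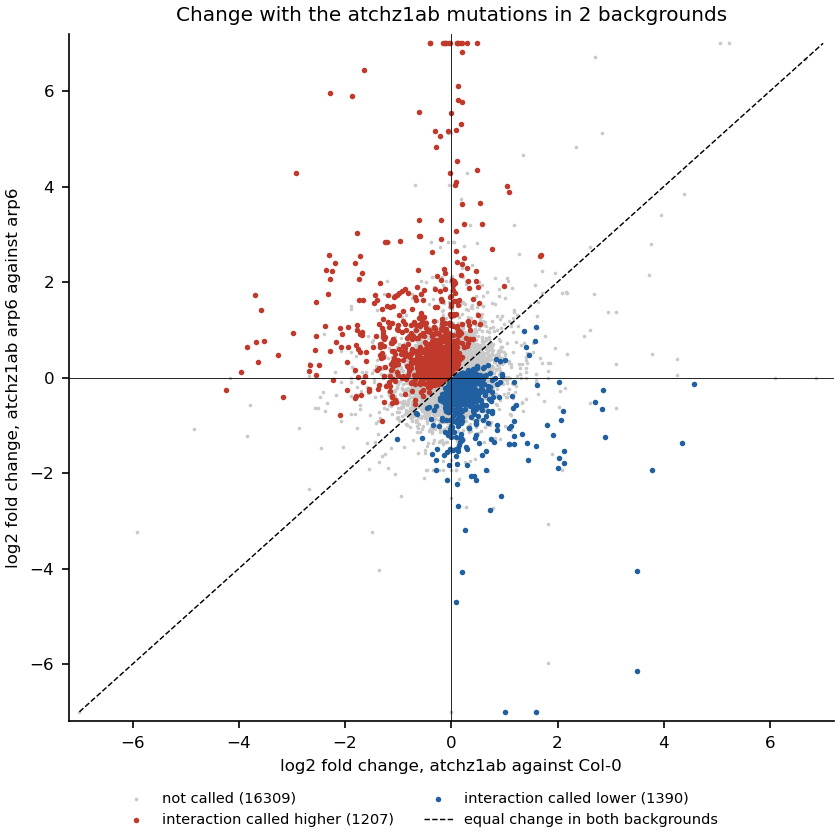
Log2 change with the atchz1ab mutations in the Col-0 background (x axis) and in the arp6 background (y axis) for each of 18906 genes, with values beyond 7 drawn at 7. Fitted values of genes with few counts depend on a prior count. The dashed line marks equal change. The 1207 genes called higher in the interaction lie above it and the 1390 called lower lie below it, which the definition of the interaction sets, and both sets spread along the axes and into the quadrants of opposite change.

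Genes picked for a large change in one background had medians nearer 0 in the other. The sets that follow hold called genes and leave out those with 3 or fewer counts in any of the 4 genotypes. The 177 genes at least 2-fold lower in atchz1ab than in Col-0 had a median log2 change of -1.38 there and 0.23 in the arp6 background, where 36 were called in the opposite direction, 15 in the same direction and 126 were not called. In the hta9hta11 background the median of the same genes was -0.04. The 68 genes at least 2-fold higher in atchz1ab had a median of 1.51 in Col-0, 0.46 in the arp6 background and 0.31 in the hta9hta11 background. In the arp6 background 27 of these were called in the same direction, 7 in the opposite direction and 34 were not called. In the other direction, the 204 genes at least 2-fold higher in atchz1ab arp6 than in arp6 had a median of 1.63 there and 0.04 in Col-0, and the 93 at least 2-fold lower had -1.36 there and 0.01 in Col-0. Of the 204, 34 were called in the same direction in Col-0 and 36 in the opposite one, and of the 93, 7 and 11 were. Selection by size inflates the median in the libraries that made it. Across all 18906 genes, Pearson's r between the log2 changes in the Col-0 and arp6 backgrounds was 0.06, as a description across genes that are not independent and many of which changed in neither.

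Defence genes of the salicylic acid pathway formed the list with the largest median departure above expectation among those with 10 or more tested members. Salicylic acid is the hormone that drives resistance to biotrophic pathogens and switches on the PATHOGENESIS-RELATED genes. Of 23 tested members edgeR called 13 higher and 0 lower (15 and 0 at an unadjusted p under 0.05, 11 and 0 with DESeq2). The called share was 56.5%, against 13.7% of all genes. The median log2 interaction was 0.89 over the 22 members with more than 3 counts in each genotype. In atchz1ab 12 members were called lower than in Col-0 and 1 higher, whereas in atchz1ab arp6 3 were called higher than in arp6 and 1 lower. The median change was -0.71 in Col-0 and 0.22 in arp6 over those 22 members, against -0.00 and 0.00 over all genes tested.

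PR1 (AT2G14610, chromosome 2, 6241640 to 6242541), a secreted defence protein used as the marker of this pathway, had 6.44, 5.14 and 7.62 CPM in the Col-0 libraries, 0.437, 0.438 and 0.566 in atchz1ab, 1.26, 0.889 and 0.95 in arp6, and 3.67, 2.95 and 3.89 in atchz1ab arp6. Either mutation alone thus went with a low level, and the combined line lay between these and Col-0, with no overlap between genotypes. The mutations of atchz1ab went with a fall of 3.69 on the log2 scale in Col-0 (edgeR adjusted p = 2.07e-15) and a rise of 1.72 in arp6 (edgeR adjusted p = 0.000125), an interaction of 5.41 ± 0.53 (SE, edgeR adjusted p = 4.01e-16). PR2 (AT3G57260), a beta-1,3-glucanase, was likewise low in both single lines, with 14.8 ± 2.9 CPM in the wild type, 2.55 ± 0.728 in atchz1ab, 1.96 ± 0.286 in arp6 and 5.81 ± 1.22 in the combined line (interaction 4.12 ± 0.33, edgeR adjusted p = 1.52e-21).

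Other members of the list were low in atchz1ab alone. LURP1 (AT2G14560), which takes part in resistance to an oomycete, had 8.91, 11.3 and 9 CPM in the wild type, 2.4, 1.09 and 1.7 in atchz1ab, 8.12, 9.49 and 9.74 in arp6 and 11.5, 11.2 and 9.71 in the combined line. The 3 atchz1ab libraries lay below all others, and the other 3 genotypes overlapped (interaction 2.75 ± 0.29, edgeR adjusted p = 2.37e-14). ACD6 (AT4G14400), a membrane protein with ankyrin repeats that raises salicylic acid signalling, stood at 43.6 ± 2.14, 16.9 ± 2.06, 49.5 ± 2.62 and 44.2 ± 4.38 CPM in the same order (edgeR adjusted p of the interaction = 3.35e-15). Among regulators, ICS1, which makes the precursor of salicylic acid, had an interaction of 0.76 ± 0.21 (edgeR adjusted p = 0.00603). PAD4, a partner of EDS1 in immune signalling, had 1.34 ± 0.32 (edgeR adjusted p = 0.000851), and the transcription factor gene WRKY70 had 0.94 ± 0.19 (edgeR adjusted p = 6.66e-05). EDS1 itself (0.07 ± 0.14, edgeR adjusted p = 0.829) and NPR1, the salicylic acid receptor and coactivator (-0.04 ± 0.12, edgeR adjusted p = 0.908), were not called. SAG13 (AT2G29350), a gene of senescence and cell death from another list, stood at 17.3 ± 1.68 CPM in the wild type, 3.65 ± 1.59 in atchz1ab, 0.325 ± 0.377 in arp6 and 1.75 ± 0.799 in the combined line, an interaction of 4.48 ± 0.52 (edgeR adjusted p = 3.54e-12).

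CRT3 (AT1G08450, chromosome 1, 2667798 to 2671957), a calreticulin that helps immune receptors to fold in the endoplasmic reticulum, had the same shape at a higher level. It had 52.2, 56.8 and 54.7 CPM in the wild type, 11.7, 9.19 and 7.01 in atchz1ab, 65.5, 60.3 and 65 in arp6 and 62.8, 68.1 and 66.9 in the combined line. The atchz1ab libraries lay far below all others, while arp6 and atchz1ab arp6 overlapped. The change with the atchz1ab mutations was -2.55 in Col-0 (edgeR adjusted p = 9.83e-51) and 0.05 in arp6 (edgeR adjusted p = 0.73), an interaction of 2.60 ± 0.12 (edgeR adjusted p = 2.33e-41). It was 0.02 in the hta9hta11 background (edgeR adjusted p = 0.976).

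Genes of abscisic acid, drought and cold responses departed upward almost as a group. Abscisic acid accumulates when water is short and induces dehydrins and other protective proteins. Of the 27 genes of the list, all tested, 20 were called higher and 1 lower (77.8%, against 13.7% of all genes), with a median log2 interaction of 0.38. In atchz1ab 18 were called lower than in Col-0 and 1 higher (median -0.35), and in atchz1ab arp6 7 were called higher than in arp6 and 3 lower (median 0.06). With the coefficient of variation set to 0.1, 9 were called higher and 0 lower.

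RD29A (AT5G52310), a hydrophilic protein induced by cold, drought and salt, had 214, 209.8 and 221 CPM in the wild type, 129.6, 128 and 132 in atchz1ab, 118, 113 and 114 in arp6 and 149, 151 and 145 in the combined line. Both single lines lay below Col-0, and the combined line lay above both single lines, with no overlap between any of the genotypes. The expected level was 69.5 CPM and the interaction was 1.09 ± 0.06 (edgeR adjusted p = 1.27e-36). RAB18 (AT5G66400), a dehydrin, had 177, 183 and 180.2 CPM in the wild type, 107, 102 and 98.9 in atchz1ab, 119.8, 122 and 116 in arp6 and 135, 143 and 139.6 in the combined line, again with the combined line above both single lines and below Col-0. Its interaction was 1.04 ± 0.06 (edgeR adjusted p = 2.29e-32). KIN1, a small protein induced by cold, had the largest interaction of the list (edgeR adjusted p = 9.36e-19), with 13 ± 0.249 CPM in the wild type, 3.39 ± 0.551 in atchz1ab, 4.6 ± 0.386 in arp6 and 9.61 ± 1.55 in the combined line. ERD10, another dehydrin, reached 0.93 ± 0.07 (edgeR adjusted p = 1.32e-23), and P5CS1, which makes proline, 0.52 ± 0.05 (edgeR adjusted p = 2.38e-16). The phosphatases ABI1, ABI2, HAB1 and HAI1, which hold abscisic acid signalling down, were also called higher, with log2 interactions of 0.21, 0.56, 0.38 and 1.09. PYL4, a receptor of the hormone, was the member called lower, at -0.44 ± 0.13 (edgeR adjusted p = 0.0139).

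The promoters of RD29A and RAB18 are shown because both genes lay in the combined line above both single lines and below the wild type, while RD29A is the textbook example of control through dehydration-responsive elements and RAB18 of control by abscisic acid. The sequences are the 250 bases before the RefSeq gene start (TAIR10.1), read in the direction of transcription, with the dehydration-responsive core CCGAC and the abscisic acid responsive core ACGTG in capitals on either strand (CACGT is ACGTG read on the other strand). No core overlapped the other kind in letters. They lie at chr5:21240467-21240716 on the plus strand and at chr5:26519448-26519697 on the minus strand.
RD29A: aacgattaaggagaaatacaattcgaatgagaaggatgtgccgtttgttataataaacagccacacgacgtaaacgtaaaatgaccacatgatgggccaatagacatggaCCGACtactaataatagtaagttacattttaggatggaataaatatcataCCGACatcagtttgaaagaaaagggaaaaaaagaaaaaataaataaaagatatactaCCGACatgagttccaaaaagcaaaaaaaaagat
RAB18: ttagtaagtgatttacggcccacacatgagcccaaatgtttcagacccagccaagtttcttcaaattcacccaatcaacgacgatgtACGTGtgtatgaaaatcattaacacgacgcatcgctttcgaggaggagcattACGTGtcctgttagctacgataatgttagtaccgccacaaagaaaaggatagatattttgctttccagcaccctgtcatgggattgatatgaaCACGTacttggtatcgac
The RD29A window held 3 CCGAC cores and 0 ACGTG cores, and the RAB18 window held 0 and 3. ACGTG was present in 10 of the 20 list members called higher (50%), near its share in the whole list whatever the call (12 of 27, 44.4%). It was present in 30% of all promoters of genes called higher, in 25.6% of those of genes called lower and in 23.5% of all 18768 promoters of this length. Among genes called with at least a 2-fold departure the share was 33.3% for the higher and 43.8% for the lower ones. CCGAC was present in 5 of the 20 list members called higher (25%), near its share in the whole list (6 of 27, 22.2%). It was present in 12.2% of genes called higher, in 13.2% of genes called lower and in 13.1% of all. These matches describe letters in a short window and were not tested as binding sites.

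Iron genes formed the list with the most members called lower than expected for its size. Plants short of iron induce IMA peptides and a group of bHLH transcription factors that raise iron uptake, and lower ferritins, which store iron. Of 17 tested members 12 were called lower and 2 higher (82.4%, against 13.7% of all genes), with a median log2 interaction of -0.82. In atchz1ab 11 were called higher than in Col-0 and 2 lower, and in atchz1ab arp6 2 were called higher than in arp6 and 12 lower. The counts stayed at 12 lower and 2 higher when any of the 12 libraries was left out.

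IMA1 (AT1G47400), one of these peptides, had 22.7, 20.7 and 21.2 CPM in the wild type, 36.4, 36.5 and 37.4 in atchz1ab, 57.9, 49.5 and 50.7 in arp6 and 31.9, 33.1 and 33.4 in the combined line. Each single line lay above Col-0, and the combined line fell below both, while still above Col-0, with no overlap between genotypes. The expected level was 90 CPM and the interaction was -1.46 ± 0.12 (edgeR adjusted p = 1.06e-20). The bHLH genes had similar values, with BHLH100 at -1.40 ± 0.14 (edgeR adjusted p = 9.96e-15), BHLH39 at -1.38 ± 0.22 (edgeR adjusted p = 2.42e-07), BHLH101 at -1.37 ± 0.20 (edgeR adjusted p = 7.67e-09) and BHLH38 at -1.14 ± 0.18 (edgeR adjusted p = 8.22e-08). BTS (AT3G18290), a ubiquitin ligase that curbs the iron response, stood at 272 ± 7.05 CPM in the wild type, 321 ± 10.5 in atchz1ab, 497 ± 5.05 in arp6 and 386 ± 5.1 in the combined line (interaction -0.60 ± 0.04, edgeR adjusted p = 2.76e-26). The members called higher were the ferritins FER1 and FER4. FER1 (AT5G01600) had 157, 146 and 148 CPM in the wild type, 80.4, 84.7 and 82.1 in atchz1ab, 20.8, 24.3 and 21 in arp6 and 33.5, 37.1 and 29.7 in the combined line. Both single lines were below Col-0, and the combined line was above arp6 with no overlap (interaction 1.48 ± 0.09, edgeR adjusted p = 1.34e-29). FER1 overlaps a gene on the opposite strand by 1334 bases, and the sources used here do not say whether counting used the strand. FER3 was not called (0.06 ± 0.10, edgeR adjusted p = 0.805). The iron superoxide dismutase gene FSD1 (AT4G25100), outside the list, stood at 647 ± 17.3 CPM in the wild type, 469.5 ± 10.4 in atchz1ab, 417 ± 9.66 in arp6 and 508 ± 4.69 in the combined line (interaction 0.75 ± 0.03, edgeR adjusted p = 5.56e-41).

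**Figure D2:**
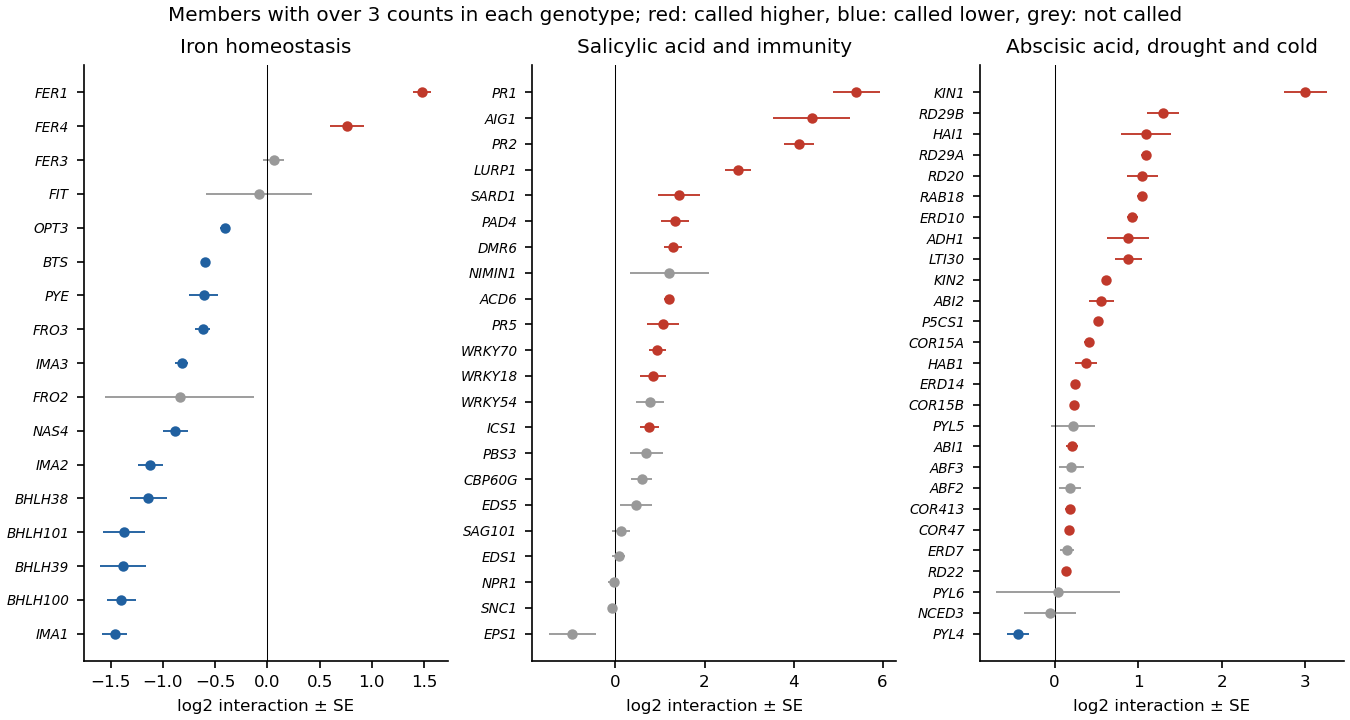
Log2 interaction (x axis, bars are SE) of each member with over 3 counts in each genotype for the iron, salicylic acid and abscisic acid lists. Called members of the iron list lie below 0 except FER1 and FER4, those of the salicylic acid list lie above 0, and those of the abscisic acid list lie above 0 except PYL4.

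Genes of photosynthesis departed in both directions, by small amounts. Of the 39 tested photosynthesis genes 20 were called lower and 8 higher (71.8%, against 13.7% of all genes). The median log2 interaction was -0.05 and the largest departure was -0.66. The genes called lower included those of carbon fixation, and those called higher were all light-harvesting genes. The summed level of the list ran from 97595 to 99194 CPM in the wild type, 98848 to 99209 in atchz1ab, 134911 to 135605 in arp6 and 123899 to 128548 in the combined line. In atchz1ab arp6 against arp6 27 were called lower and 3 higher, and in atchz1ab against Col-0 14 were called lower and 15 higher. With library totals in place of TMM the split was 15 lower and 13 higher, and with the coefficient of variation set to 0.1 it was 1 and 1.

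CA1 (AT3G01500), the carbonic anhydrase of the chloroplast, had 3378, 3351 and 3313 CPM in the wild type, 4284, 4311 and 4338 in atchz1ab, 4532, 4539.7 and 4529.9 in arp6 and 3760.0, 3653 and 3658 in the combined line. Both single lines were above the combined line, which was above Col-0, with no overlap (interaction -0.66 ± 0.02, edgeR adjusted p = 1.75e-63). GLDP1 (AT4G33010), a subunit of the glycine decarboxylase of photorespiration and a gene outside the list, had 2636, 2636 and 2625 CPM in the wild type, 3849, 3882 and 3888 in atchz1ab, 2890.2, 2923 and 2931 in arp6 and 2638, 2627 and 2632 in the combined line. The combined line overlapped Col-0 and lay below both single lines (interaction -0.70 ± 0.02, edgeR adjusted p = 1.26e-63). RCA (AT2G39730), the activase of Rubisco, had an interaction of -0.45 ± 0.02 (edgeR adjusted p = 2.22e-46), and the Calvin cycle enzymes SBPASE and PRK had -0.49 ± 0.03 and -0.42 ± 0.02 (edgeR adjusted p = 1.42e-31 and 1.02e-33). GLN2 and GLU1, which take up the ammonium that photorespiration releases, had -0.37 ± 0.02 and -0.32 ± 0.02 (edgeR adjusted p = 1.21e-31 and 1.75e-30).

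LHCB1.1 (AT1G29920), a chlorophyll-binding protein of the photosystem II antenna, went the other way on the log scale. It had 1176, 1156 and 1148 CPM in the wild type, 641, 636 and 628 in atchz1ab, 2545, 2598 and 2552 in arp6 and 1997, 2094 and 2006 in the combined line. The atchz1ab mutations went with a fall in both backgrounds, of 0.87 on the log2 scale in Col-0 (edgeR adjusted p = 2.24e-76) and a smaller change of -0.34 in arp6 (edgeR adjusted p = 1.07e-37), so that the interaction was 0.53 ± 0.02 (edgeR adjusted p = 5.24e-40). On the CPM scale the departure of LHCB1.1 was -8.36, small beside its level and of the opposite sign, so that its call rests on the log scale. LHCB1.2, LHCB1.3 and LHCB3 were also called higher, at 0.33, 0.24 and 0.26. Genes of the LHCB1 and RBCS families are near-identical copies, so that reads could be divided wrongly among them.

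**Figure D3:**
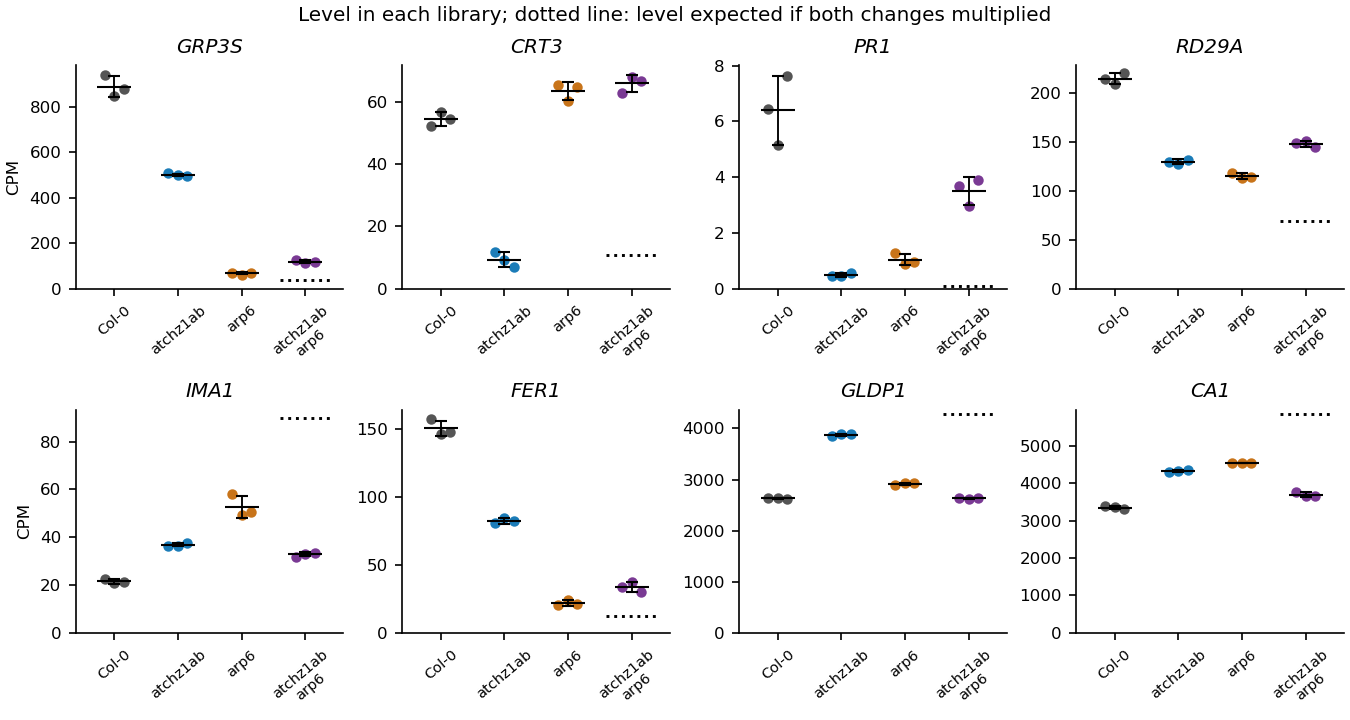
CPM (y axis, from 0) of 8 genes in each of the 12 libraries, with points for libraries and bars for the mean ± SD of 3. The dotted line is the level in atchz1ab arp6 expected if both changes multiplied, below the points for GRP3S, CRT3, PR1, RD29A and FER1 and above them for IMA1, GLDP1 and CA1.

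Nitrogen, glucosinolate and jasmonate genes were also called more often than the 13.7% of all genes. Called members made up 70% of the nitrogen list, 53.6% of the glucosinolate list and 48.1% of the jasmonate list. Of 10 nitrogen genes 5 were called lower and 2 higher, and 1 and 1 with the coefficient of variation set to 0.1. The nitrate reductase NIA1 stood at 448 ± 11.2 CPM in the wild type, 478 ± 9.74 in atchz1ab, 504 ± 10 in arp6 and 369 ± 9.87 in the combined line, where the combined line lay below all others (interaction -0.54 ± 0.04, edgeR adjusted p = 6.9e-28). GLT1 (AT5G53460), the NADH-dependent glutamate synthase and a gene outside the list, had 1111, 1081 and 1071 CPM in the wild type, 724, 707 and 737 in atchz1ab, 989, 999 and 993 in arp6 and 1011, 1009 and 989 in the combined line. The atchz1ab libraries stood apart below the rest, and the combined line overlapped arp6 (interaction 0.60 ± 0.03, edgeR adjusted p = 2.78e-41).

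Glucosinolates are sulphur-rich defence compounds that myrosinases break down when tissue is damaged. Of 28 tested genes 13 were called higher and 2 lower (median log2 interaction 0.27), and with the coefficient of variation set to 0.1 the counts were 3 and 0. The myrosinase TGG2 (AT5G25980) had 867, 871 and 872 CPM in the wild type, 858, 881 and 857 in atchz1ab, 191, 199 and 194 in arp6 and 314, 318 and 319 in the combined line. Col-0 and atchz1ab overlapped, arp6 was far below them, and the combined line lay in between (interaction 0.72 ± 0.04, edgeR adjusted p = 1.22e-37). Among enzymes of aliphatic glucosinolate synthesis, MAM3 had the largest interaction (edgeR adjusted p = 3.35e-05), with 11.7 ± 0.639 CPM in the wild type, 4.01 ± 1.07 in atchz1ab, 10.9 ± 1.1 in arp6 and 8.93 ± 1.64 in the combined line. Smaller values were found for others, with MAM1 at 0.43 ± 0.04 (edgeR adjusted p = 1.67e-17), CYP79F1 at 0.43 ± 0.05 (edgeR adjusted p = 1.81e-14) and CYP83A1 at 0.45 ± 0.05 (edgeR adjusted p = 1.59e-15). MYB28, the regulator of that branch, was called lower, at -0.26 ± 0.07 (edgeR adjusted p = 0.00526). In the list for jasmonate and wounding 12 of 27 genes were called higher and 1 lower, and 5 and 0 with the coefficient set to 0.1. VSP2 (AT5G24770), a storage protein induced by wounding, had 173, 169 and 177 CPM in the wild type, 184, 186 and 185 in atchz1ab, 77.6, 75.6 and 70.6 in arp6 and 152, 154 and 156 in the combined line. The arp6 libraries stood apart, and the combined line lay below Col-0 and atchz1ab and well above arp6, without overlap (interaction 0.95 ± 0.06, edgeR adjusted p = 1.01e-29). MYC2, the central transcription factor of the pathway, had an interaction of 0.44 ± 0.09 (edgeR adjusted p = 3.44e-05).

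Of 29 phosphate starvation genes 7 were called higher and 1 lower (27.6%, against 13.7% of all genes). The transporter PHT1;4 stood at 11.5 ± 2.01 CPM in the wild type, 3.39 ± 0.485 in atchz1ab, 2.06 ± 1.06 in arp6 and 2.95 ± 0.535 in the combined line, an interaction of 2.35 ± 0.36 (edgeR adjusted p = 5.82e-08), with all mutant lines below Col-0. Of 19 heat shock genes 6 were called higher and 2 lower (42.1%), among them HSP17.6C at 3.03 ± 0.276, 0.147 ± 0.0619, 1.02 ± 0.173 and 0.846 ± 0.233 CPM in the wild type, atchz1ab, arp6 and atchz1ab arp6. These levels rest on few counts in the mutant lines, with 4 over the atchz1ab libraries. When 1 library was left out, 4 to 6 heat shock genes were called higher and 0 to 2 lower. Auxin response genes included 5 called lower and 1 higher of 28 (21.4%), and 2 lower and 1 higher with the coefficient of variation set to 0.1. The 5 lower ones were IAA1, IAA3, IAA4, IAA7 and IAA17, repressors of auxin signalling, at -0.80, -0.80, -0.31, -0.31 and -0.47.

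**Figure D4:**
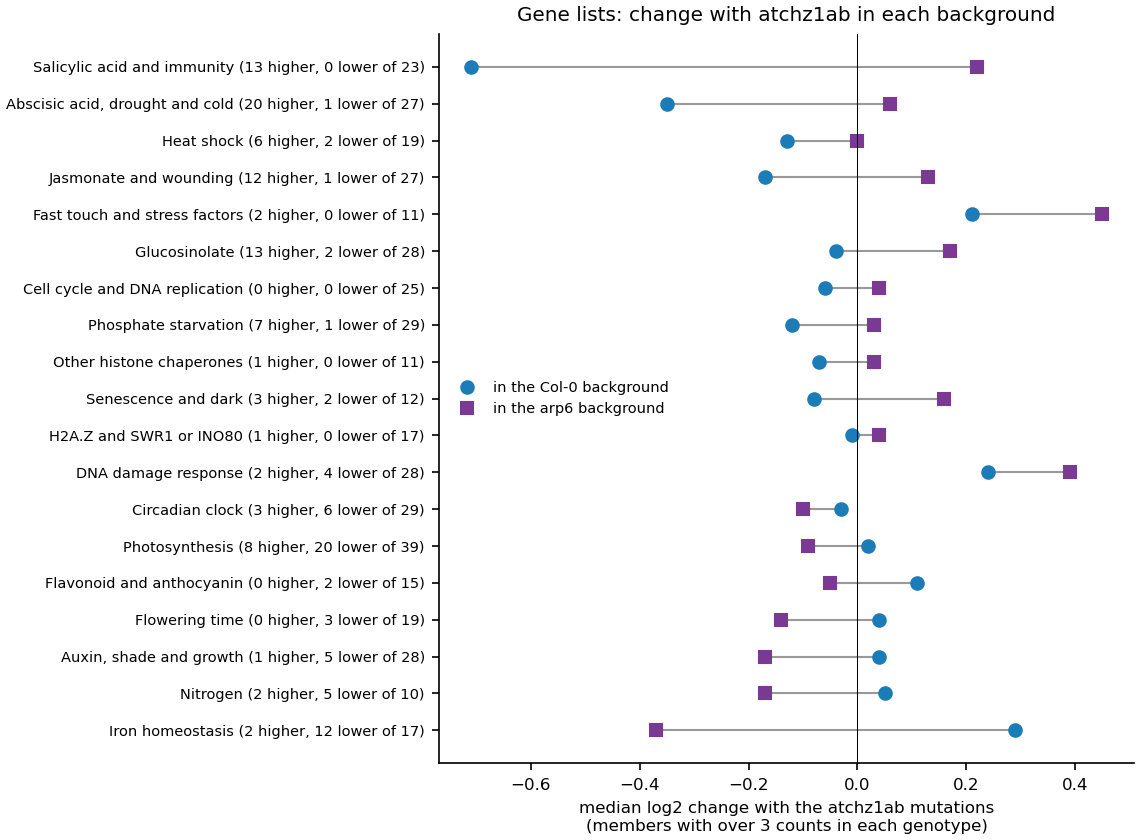
Median log2 change with the atchz1ab mutations (x axis) in the Col-0 background (circles) and in the arp6 background (squares) over the members of each gene list with over 3 counts in each genotype, for lists with 8 or more of them. Labels give the members called higher and lower in the interaction. The salicylic acid, abscisic acid and jasmonate lists go from below 0 to above 0, and the iron list goes from 0.29 to -0.37. The glucosinolate, senescence, phosphate, cell cycle, other histone chaperone and H2A.Z lists also go from below 0 to above 0, over shorter spans. The flowering time, nitrogen, flavonoid, photosynthesis and auxin lists go from above 0 to below 0, over shorter spans than the iron list.

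Of 28 tested genes of the DNA damage response 11 were called higher and 2 lower with the atchz1ab mutations in Col-0, and 14 and 1 in arp6. The interaction called 2 higher and 4 lower (21.4%, against 13.7% of all genes). TSO2, a subunit of ribonucleotide reductase, stood at 60.5 ± 2.24 CPM in the wild type, 156 ± 0.999 in atchz1ab, 71.8 ± 5.36 in arp6 and 142 ± 4.66 in the combined line, so that it rose in both, by 1.36 and 0.98 (interaction -0.38 ± 0.07, edgeR adjusted p = 8.28e-06). PARP2, which marks broken DNA with ADP-ribose chains, had 7.3, 9.76 and 8.12 CPM in the wild type, 25.4, 30.2 and 25.7 in atchz1ab, 6.11, 7.56 and 5.46 in arp6 and 37.3, 35.3 and 39.7 in the combined line. The lines with the atchz1ab mutations stood apart from those without, and the combined line was the highest (interaction 0.89 ± 0.18, edgeR adjusted p = 8.54e-05). ATR (AT5G40820), the kinase that senses stalled replication, stood at 7.99 ± 1.05, 7.59 ± 0.437, 13.4 ± 1.76 and 4.58 ± 1.76 CPM in the wild type, atchz1ab, arp6 and atchz1ab arp6 (interaction -1.48 ± 0.25, edgeR adjusted p = 8.25e-07). It overlaps a gene on the opposite strand by 200 bases. Of 25 tested cell cycle and DNA replication genes edgeR's quasi-likelihood test called 0 in the interaction, DESeq2 called 0, and 1 had an unadjusted p under 0.05.

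Among 17 tested genes of H2A.Z and the SWR1 or INO80 complexes, SWC6 was the only one called (5.88%, against 13.7% of all genes), at 1.38 ± 0.40 (edgeR adjusted p = 0.00796). Without arp6 replicate 1 its value was 0.98 and no longer called. The H2A.Z genes HTA9, HTA11 and HTA8 were not called, at -0.05 ± 0.07, -0.05 ± 0.16 and 0.54 ± 0.28. Of 11 genes of other histone chaperones MSI1 was called (9.09% of the list), at 0.35 ± 0.11 (edgeR adjusted p = 0.0255). It was no longer called when arp6 replicate 1 (0.33) or replicate 3 of the combined line (0.32) was left out. Lists of this size do not show whether the histone genes departed less often than others. FLM (AT1G77080), a floral repressor related to FLC, had 38, 37.1 and 38 CPM in the wild type, 35.4, 34.7 and 37.4 in atchz1ab, 24.7, 27.4 and 28.4 in arp6 and 19.9, 17.5 and 16.4 in the combined line. Col-0 and atchz1ab overlapped, arp6 lay below both, and the combined line was lowest (interaction -0.50 ± 0.13, edgeR adjusted p = 0.00231). FLC stood at 3.46 ± 0.371, 3.11 ± 1.28, 1.19 ± 0.416 and 0.449 ± 0.354 CPM and was not called (edgeR adjusted p = 0.223). Of 19 flowering time genes FUL, SPL4 and AP1 were called lower (15.8%, near the 13.7% of all genes). Each of these calls was lost in several of the fits that left out 1 library, which called between 0 and 2 of the list.

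Of 12 tested seed maturation genes edgeR called 4 lower and 0 higher (5 and 0 at an unadjusted p under 0.05, 3 and 0 with DESeq2). The called share was 33.3%, against 13.7% of all genes, and 7 of the 12 had more than 3 counts in each genotype. The summed level of 12 tested seed maturation genes ran from 15.5 to 21.8 CPM in the wild type, 33.5 to 36.8 in atchz1ab, 19.6 to 20.7 in arp6 and 9.64 to 11.9 in atchz1ab arp6, with 3 or 4 of the genes at 0 counts in each genotype. CRA1 (AT5G44120), a storage globulin, had 12.6, 9.44 and 11.6 CPM in the wild type, 19.3, 20.8 and 20.5 in atchz1ab, 4.95, 6.37 and 5.7 in arp6 and 2.02, 3.08 and 2.78 in the combined line. It rose with the atchz1ab mutations in Col-0 and fell in arp6, with no overlap (interaction -1.95 ± 0.24, edgeR adjusted p = 5.3e-11). Summed levels of 5 floral organ genes ran from 34.8 to 42.1 CPM in arp6 and from 46.9 to 52.6 in the combined line, against 19.2 to 22.4 in Col-0 and atchz1ab. SEP3 made up most of the difference between arp6 and the combined line, with means of 26.6 and 38.3 CPM, and lies in a 1 Mb window chosen for large departures. Those of 4 root genes ran from 51.4 to 60.6 in arp6 and from 65.5 to 71.6 in the combined line, against 47.9 to 55.3 in Col-0 and atchz1ab. ADF8 made up most of that difference, with means of 0.692 and 11.9 CPM, and lies in another such window, without which 0 root genes were called. The part of organ make-up in the seed, iron, defence and photosynthesis results was not tested. In whole seedlings, fewer cells of a type and less RNA per cell cannot be told apart.

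Several of the largest departures were in genes nearly silent in arp6 alone. AT1G23130, which encodes a protein of the polyketide cyclase family, had 445, 418 and 427 CPM in the wild type, 437, 422 and 430.2 in atchz1ab, 5.9, 5.48 and 6.06 in arp6 and 272, 270.2 and 277 in the combined line. Only the arp6 libraries were low, and the combined line stood 47 times above the expected level (interaction 5.54 ± 0.07, edgeR adjusted p = 3.85e-102). AGL87 (AT1G22590), a MADS-box gene, stood at 28.5 ± 1.62, 32.8 ± 2.09, 0.277 ± 0.298 and 14.2 ± 3.04 CPM in the wild type, atchz1ab, arp6 and atchz1ab arp6 (interaction 5.59 ± 0.34, edgeR adjusted p = 4.51e-30). IGMT4 (AT1G21130), a methyltransferase of indole glucosinolates, was low but not silent in arp6, and stood at 217 ± 3.42, 227 ± 2.87, 45.5 ± 5.39 and 179.8 ± 4.1 CPM in the same order (interaction 1.93 ± 0.06, edgeR adjusted p = 1.29e-56), though it has close copies beside it. A different shape was seen for GRP3S (AT2G05380), a glycine-rich protein, with 937, 845 and 879 CPM in the wild type, 506, 498 and 494 in atchz1ab, 68.9, 61.5 and 70.2 in arp6 and 126, 112 and 117 in the combined line. Each single line was below Col-0, and the combined line was above arp6 and below atchz1ab (interaction 1.64 ± 0.05, edgeR adjusted p = 9.76e-57).

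Among genes called in the interaction, those with 0 counts in all 3 arp6 libraries and at least 30 counts in each of the other genotypes numbered 13. They lie on chromosomes 1 (3 genes), 2 (1), 4 (3) and 5 (6). AT5G36930, a receptor of the disease resistance type, had 189, 250 and 209 counts in the Col-0 libraries, 227, 287 and 272 in atchz1ab, 0 in each arp6 library and 144, 176 and 163 in the combined line. With the group's 0 set to a floor of 3 counts, it was at least 176-fold higher in atchz1ab arp6 than in arp6. AT5G28919, an uncharacterized gene, had 880 counts over the Col-0 libraries, 999 over atchz1ab and 884 over the combined line, at least 322-fold higher than in arp6, and AT5G28920 overlaps it, so that reads could be divided wrongly between them. Among the 49 called genes with 3 or fewer counts in any genotype, 35 were that low in arp6 alone and 2 in atchz1ab arp6 alone. Fitted folds of these genes are not given, since they depend on a prior count.

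The positions of genes with large departures were then read. In 1 Mb windows with 20 or more tested genes, of which there were 111, 8 held a share of at least 3% of genes with a 4-fold departure, against 1.09% of all genes. They were chosen for that share after the values were seen, which sets their enrichment, and hold 828 tested genes (4.38%), 42 of the 206 genes with a 4-fold departure (20.4%) and 9 of the 13 genes at 0 in arp6. The other 164 genes with a 4-fold departure (79.6%) lie outside them, PR1 and AT1G11280 among them. The window from 10 to 11 Mb of chromosome 5 had 17.1% of its 41 tested genes past 4-fold and that from 14 to 15 Mb had 9.09% of 66. AT1G23130, AGL87, IGMT4, AT1G20390, SWC6, ERD10 and ADF8 lie in these windows, as do genes that were lowest in the combined line. Of the latter, UGT85A5 (AT1G22370), a glucosyltransferase, had 31, 33.2 and 31 CPM in the wild type, 40.8, 36.5 and 37.1 in atchz1ab, 19.7, 20.9 and 15.8 in arp6 and 1.77, 2.54 and 1.8 in the combined line (interaction -3.46 ± 0.20, edgeR adjusted p = 2.21e-32). SADHU1-3 (AT5G28626), a retroposon, was high in arp6 alone, at 15.4 ± 2.11 CPM against 3.51 ± 0.496 in Col-0, 3.69 ± 0.817 in atchz1ab and 0.567 ± 0.439 in atchz1ab arp6 (interaction -4.78 ± 0.41, edgeR adjusted p = 3.76e-19). Among the 4 genotypes, ADF8, an actin depolymerizing factor of root hairs, was high in the combined line alone, at 11.9 ± 0.507 CPM against 0.692 ± 0.348 in arp6. It stood at 0.542 ± 0.262 in Col-0, and at 4.48 ± 0.549 in hta9hta11 and 4.02 ± 1.52 in atchz1ab hta9hta11. Whether the lines carried the same DNA at these loci was not tested. Leaving the windows out left 2405 called genes, 413 of them at least 2-fold.

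**Figure D5:**
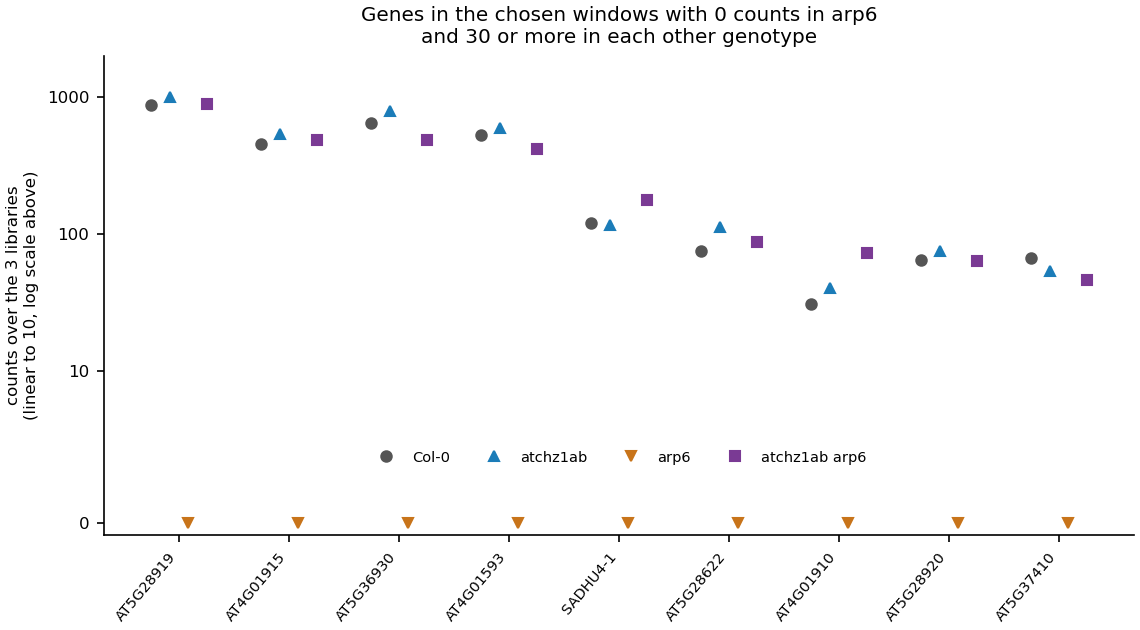
Counts over 3 libraries (y axis, linear to 10 and on a log scale above) in each genotype for 9 genes in the chosen windows. They are the genes called in the interaction with 0 counts in arp6 and 30 or more in each other genotype. The atchz1ab arp6 libraries held between 46 and 884 counts per gene, against 31 to 880 in Col-0 and 40 to 999 in atchz1ab.

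The interaction with arp6 was set against that with hta9hta11, in which the H2A.Z genes themselves are mutated. With the atchz1ab mutations, 330 genes were called in the hta9hta11 background (1.75%), 0.793% of those tested higher and 0.952% lower, against 2768 in the arp6 background. The interaction with hta9hta11 called 1352 genes (7.15%), 3.41% higher and 3.74% lower, but both interactions share the Col-0 and atchz1ab libraries. The test of their difference, in which those libraries cancel, called 1213 genes (6.42%), 575 higher (3.04%) and 638 lower (3.37%) with arp6. For AT1G23130 the difference was 5.68 (edgeR adjusted p = 1.22e-103), for IGMT4 2.04 (edgeR adjusted p = 2.92e-59), for AT2G10940, a lipid-transfer-like protein, -0.70 (edgeR adjusted p = 1.11e-45) and for PARP2 1.18 (edgeR adjusted p = 2.57e-07). Of the 17 iron genes 7 differed, 1 of them higher with arp6, and of the 27 abscisic acid genes 9 did, all higher with arp6. Of the 23 salicylic acid genes 1 did, and their median interaction was 0.94 with arp6 and 0.64 with hta9hta11. The median was -0.82 with arp6 and -0.43 with hta9hta11 for the iron genes, and 0.38 and 0.27 for the abscisic acid genes. The difference for PR1 was 1.74 and not called (edgeR adjusted p = 0.0976). For CRT3, LURP1 and ACD6 the difference was not called, at 0.03, 0.30 and 0.30 (edgeR adjusted p = 0.924, 0.77 and 0.236). LURP1 stood at 1.72 ± 0.669 CPM in hta9hta11 and ACD6 at 16.5 ± 0.54, near their levels in atchz1ab, whereas CRT3 stood at 51.5 ± 2.36, near its level in Col-0.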

How the data were processed

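Polyadenylated RNA of 18 seedling libraries was sequenced, 12 of them from the 4 genotypes described here. Per the labels' protocols, RNA was taken with the RNAprep plant kit and libraries were made with the KAPA stranded mRNA-seq kit. The deposited values are whole-number read counts per gene, made by the authors without normalization. Per the submitters' processing notes, cutadapt, HISAT2, SAMtools and featureCounts were used with the build TAIR10, and versions, settings and use of the strand are not known here. Of 33602 genes listed, 8244 had no count in any library.

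The counts were fitted with edgeR 4.0.16 (R 4.3.3, quasi-likelihood test, TMM scaling, filterByExpr) over all 18 libraries with genotype as 1 factor, leaving 12 residual degrees of freedom, and 18906 genes (99.905% of counts) were tested. The interaction is the contrast of 4 genotype means. On simulated counts the fit was checked before use. SE values come from the test statistic. Replicate pairs of the 4 genotypes differed by more than sampling noise (chi-square per degree of freedom 1.46 to 1.66 over 12 pairs). Same-numbered libraries did not deviate together (r from -0.038 to 0.04 over 18 pairs), so that the numbers were not taken to pair samples.

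Named genes are ARP6, the H2A.Z genes and the FLC clade, the 10 called genes in each direction with the smallest p, the 5 with the largest interaction at 5 CPM or more in any genotype, and up to 4 called members of each of 23 lists (493 genes, 441 tested). Genes with 3 or fewer counts in a genotype were counted apart. Other list members that are named were chosen after their values were seen. The members and lists were chosen with earlier results of these data known. Alternatives were RLE size factors, library totals, 2 other filters, a replicate block, a coefficient of variation of 0.1, the 12 libraries alone, DESeq2 1.42.0 and each library left out. Leaving out the chosen 1 Mb windows was added after the data were seen. Coordinates and promoters are from RefSeq TAIR10.1, with 18769 tested genes matched. Bounds cover counting error only. A result on 1 gene is not reported here.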

Additional observations from a re-analysis of the deposited data

Results flagged for a closer look

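The change with the atchz1ab mutations differed between the Col-0 and arp6 backgrounds, by edgeR's quasi-likelihood test of the difference itself, for 2597 genes. For 442 of these it was called in opposite directions in the 2 backgrounds. The interaction with arp6 differed from that with hta9hta11 for 1213 genes.

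Of the 98 named genes, 37 were called in opposite directions in the 2 backgrounds, against 442 of all 18906 genes tested. Most were named through the interaction call, which 89 of the 98 had, so that the count follows in part from the naming rule. Of the 37, 17 had been named for the smallest p or the largest interaction. Among these 17, the log2 interaction was positive for GRP3S (1.64), FSD1 (0.75), PR1 (5.41) and 3 genes without a symbol, AT1G13930 (0.52), AT4G01870 (1.16) and AT1G20390 (5.10). It was negative for the photorespiration genes GLDP1 (-0.70) and GLDP2 (-0.67), the carbonic anhydrase genes CA1 (-0.66) and CA2 (-0.48), the Rubisco activase gene RCA (-0.45), the chloroplast elongation factor gene SCO1 (-0.56), the chloroplast RNA-binding protein gene CRB (-0.53) and the aldolase gene FBA5 (-0.50). It was also negative for the storage protein gene CRU3 (-3.47), the glucosyltransferase gene UGT85A5 (-3.46) and the RNA gene AT4G04223 (-2.96). AT4G01870, AT1G20390 and UGT85A5 lie in the 1 Mb windows chosen for large departures, and whether the lines carried the same DNA there was not tested.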

How the results depend on the processing

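With a coefficient of variation of 0.1 in place of the 3.08% estimated from the replicates, fewer genes were called: 693 in the interaction (478 higher, 215 lower), 637 in atchz1ab against Col-0, 839 in atchz1ab arp6 against arp6 and 326 in the difference between the interactions. The other settings gave 2033 (DESeq2) to 2613 (RLE size factors) interaction calls, 2580 with library totals, 2560 without a filter, 2598 with a filter at 1 CPM and 2532 with the 12 libraries alone, which give no difference between interactions. The replicate block gave 2585, and the numbers were not shown to pair the samples. Leaving out each library gave 2272 to 2401 calls, 1042 to 1105 higher and 1216 to 1298 lower, 452 to 478 of at least 2-fold, 1770 to 2240 in atchz1ab against Col-0, 2255 to 2798 in atchz1ab arp6 against arp6 and 1048 to 1219 in the difference. Without the chosen windows 2405 were called. The HTA11 interaction, not called at -0.05, was 0.00 with library totals and between -0.10 and 0.01 when a library was left out. Of 89 called named genes, 54 kept their call under each alternative that gave a value, and 30 lost it at a coefficient of 0.1. MAF5 became called without replicate 2 of atchz1ab arp6 and MAF2 without replicate 3. Causes of these differences were not tested. Replicates that may be technical limit each p-value, and genes near 1 CPM rest on few counts.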

Other observations

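The remaining lists held smaller sets of called genes, with 13.7% of all genes tested called for comparison. Of 29 circadian clock genes 6 were called lower and 3 higher (31%). GI, which couples the clock to flowering, stood at 149 ± 7.81 CPM in the wild type (SD, n = 3), 161 ± 1.53 in atchz1ab, 235 ± 6.23 in arp6 and 199.9 ± 6.21 in the combined line, an interaction of -0.34 ± 0.05 (edgeR adjusted p = 6.86e-08), and lies in one of the chosen windows. PRR7 and TOC1, which repress morning genes, had interactions of -0.24 ± 0.05 and -0.20 ± 0.04 (edgeR adjusted p = 8.6e-05 and 0.00019). The number of clock genes called higher was 1 without Col-0 replicate 3.

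Of 12 senescence and dark response genes 3 were called higher and 2 lower (41.7%). SAG21, a small protein induced by oxidative stress, stood at 70 ± 3.51 CPM in the wild type, 44 ± 4.45 in atchz1ab, 18.3 ± 1.28 in arp6 and 26.9 ± 3.94 in the combined line (interaction 1.22 ± 0.12, edgeR adjusted p = 5.78e-16). DIN6, an asparagine synthetase induced in the dark, went the other way, at -0.60 ± 0.14 (edgeR adjusted p = 0.000731). Of 11 fast touch and stress genes 2 were called higher and 0 lower (4 and 0 at an unadjusted p under 0.05, 2 and 0 with DESeq2). Among these, TCH3, a calmodulin-like protein induced by touch, stood at 70.9 ± 7.18 CPM in the wild type, 73.4 ± 1.36 in atchz1ab, 12.6 ± 1.41 in arp6 and 31.6 ± 0.789 in the combined line (interaction 1.26 ± 0.12, edgeR adjusted p = 2.53e-17). Of 15 flavonoid genes CHS and CHI, the first enzymes of the pathway, were called lower (13.3%, near the 13.7% of all genes), at -0.43 ± 0.11 and -0.50 ± 0.17 (edgeR adjusted p = 0.00274 and 0.0271). Of 5 floral organ genes edgeR called 0, DESeq2 called 0, and 0 had an unadjusted p under 0.05.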
